A study of Mus musculus with 8 samples.

Results

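The Krüppel-like factor (KLF) genes Klf2, Klf3, Klf4, Klf5, Klf6, Klf7, Klf9, Klf10, Klf13 and Klf15 were followed in RNA from mouse ovarian follicles. They were selected by gene name and make up 10 of the 17 numbered KLF genes and 10 of the 55157 genes in the expression table. Follicles of type 7 to 8, a morphological stage, came from ovaries of Kunming mice, an outbred stock, at postnatal day 21. Every animal had received pregnant mare serum gonadotropin (PMSG, which acts like follicle-stimulating hormone) 24 hours earlier. The control group had PMSG with normal saline (4 libraries) and the melatonin group had PMSG with melatonin (4 libraries). No group went without PMSG, so a response to the gonadotropin itself could not be measured. The labels do not say whether libraries came from separate animals or from pools, and p-values therefore measure the spread between these libraries, which may be technical in part.

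KLF proteins are transcription factors whose zinc fingers bind GC-rich and CACCC sequences, and they differ mainly in the regions that recruit partners. Klf2, Klf4, Klf5, Klf6 and Klf7 belong to a branch that can recruit histone acetyltransferases. Klf3 binds the CtBP corepressors, whereas Klf9, Klf10 and Klf13 bind the Sin3 corepressor, and Klf15 is known for its role in amino acid and glucose metabolism. Several members, among them Klf2, Klf4, Klf6 and Klf10, are induced quickly by growth factors, hormones or mechanical stimuli in many cell types. Here the question is whether follicles exposed to melatonin beside PMSG held other amounts of these transcripts.

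Levels are given as FPKM (fragments scaled to exon length and to the total of the library), which is per length. The length covers all annotated exons of a gene, used or not in follicles, so levels of different genes compare only roughly. The fragments assigned to genes, recovered from the FPKM values, numbered 17451067 to 22034165 per control library and 18553172 to 23649140 per melatonin library. The members' values rested on 20 to 33 fragments per library for Klf5, 135 to 937 for Klf2, Klf3, Klf4, Klf7, Klf9, Klf10, Klf13 and Klf15, and 1644 to 4388 for Klf6. Markers of granulosa, theca and oocyte cells were all above a mean of 1 FPKM. Granulosa markers summed to 7571 to 9961 FPKM in the control group and 6420 to 7325 with melatonin, without overlap, and 7 of 8 had a negative log2 fold change (lower with melatonin). Theca markers summed to 55.8 to 63.0 and 31.2 to 60.0 FPKM, oocyte markers to 304 to 479.5 and 290 to 380. Endothelial markers summed to 12 to 17.86 FPKM in the control group and 9.97 to 14.42 with melatonin, stroma markers to 29.0 to 63.8 and 20.4 to 38.0. Smooth muscle markers summed to 36.9 to 64.1 and 36.8 to 63.3 FPKM, and leukocyte markers to 29.2 to 130.1 and 26.6 to 44.9. Surface epithelium markers summed to 51.1 to 78.4 and 42.1 to 49.4 FPKM, without overlap. No marker was at 0 in all libraries. Dependence on transcript GC content and on exon length separated the groups too. Across genes, not independent of each other, Spearman's rho between GC content and the deviation of a library from the mean was -0.02 to 0.26 for control and -0.18 to -0.12 for melatonin. Between exon length and this deviation, rho was -0.11 to -0.05 for control and 0.02 to 0.11 for melatonin. The part of these marker, GC and length differences in the results below was not tested, except where values after removal of GC and length trends are given.

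Of the members, Klf2 and Klf4 stood lowest with melatonin relative to control. Sequences upstream of their start sites are shown because both lay below control without overlap. They are RefSeq promoter windows of build GRCm38.p6, 5′ to 3′ on the gene's strand, ending at the last base before the first annotated start (GENCODE M21 or RefSeq). Capitals mark TGACG, searched on both strands as all motifs were, the core of the cyclic AMP response element, and the binding site known as the MEF2 box. A TGACG on the other strand reads CGTCA. The Klf2 stretch is chr8:72318812-72319032 on the plus strand, and the Klf4 stretch is chr4:55532476-55532725 on the minus strand.
Klf2: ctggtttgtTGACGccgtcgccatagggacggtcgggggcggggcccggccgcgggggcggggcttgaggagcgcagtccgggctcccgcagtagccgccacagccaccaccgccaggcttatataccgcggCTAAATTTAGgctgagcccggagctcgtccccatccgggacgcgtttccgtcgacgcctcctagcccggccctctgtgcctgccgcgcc
Klf4: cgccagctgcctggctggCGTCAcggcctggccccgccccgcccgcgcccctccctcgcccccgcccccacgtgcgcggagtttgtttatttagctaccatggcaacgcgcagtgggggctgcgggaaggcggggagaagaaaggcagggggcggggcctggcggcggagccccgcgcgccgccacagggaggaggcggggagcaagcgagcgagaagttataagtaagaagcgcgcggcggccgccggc

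Both stretches held 1 TGACG and neither held CACCC. Windows of 300 bases, 250 before and 50 after the RefSeq start site, were at hand for 8 of the 10 members, all but Klf5 and Klf10. TGACG was found in 6 of the 8, against 20.8% of 32841 such windows of all genes, and CACCC (both strands) in 6 of the 8 against 57.5%. The 8 windows held 58.3 to 76.7% GC, and the shares over all windows were not matched for GC. The windows of Klf6 and Klf7 held no TGACG and those of Klf4 and Klf6 no CACCC. The MEF2 box occurred in the Klf2 window, against 0.56% of all windows. The serum response element, searched by its consensus, was in none of the 8 windows and in 1.63% of all windows. These matches describe letters in a window and not binding.

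No KLF gene passed the threshold between melatonin and control. Of the 10 members 9 had a mean of at least 1 FPKM and were tested with all other such genes by limma on log2(FPKM + 1). None had an adjusted p under 0.05, where 0 of all 14738 tested genes did (0%). Before adjustment 2821 genes (19.1%) had p under 0.05. The limma-voom fit on fragments likewise left 0 genes past the threshold, and 2778 before adjustment. Among the members 3 had such an unadjusted p by limma, Klf2 and Klf4 on the lower side (9.74% of all tested genes) and Klf7 on the higher side (9.4%). In the same 3 members the 4 melatonin values lay entirely outside the control range, against 11.7% of all tested genes (5.94% lower and 5.79% higher). The median log2 fold change was 0.03 over the 9 members and -0.01 over all tested genes, with 4 members negative and 5 positive where 52.5% of all tested genes were negative. FPKM from whole follicles cannot tell fewer cells of a type from less RNA per cell.

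**Figure D1:**
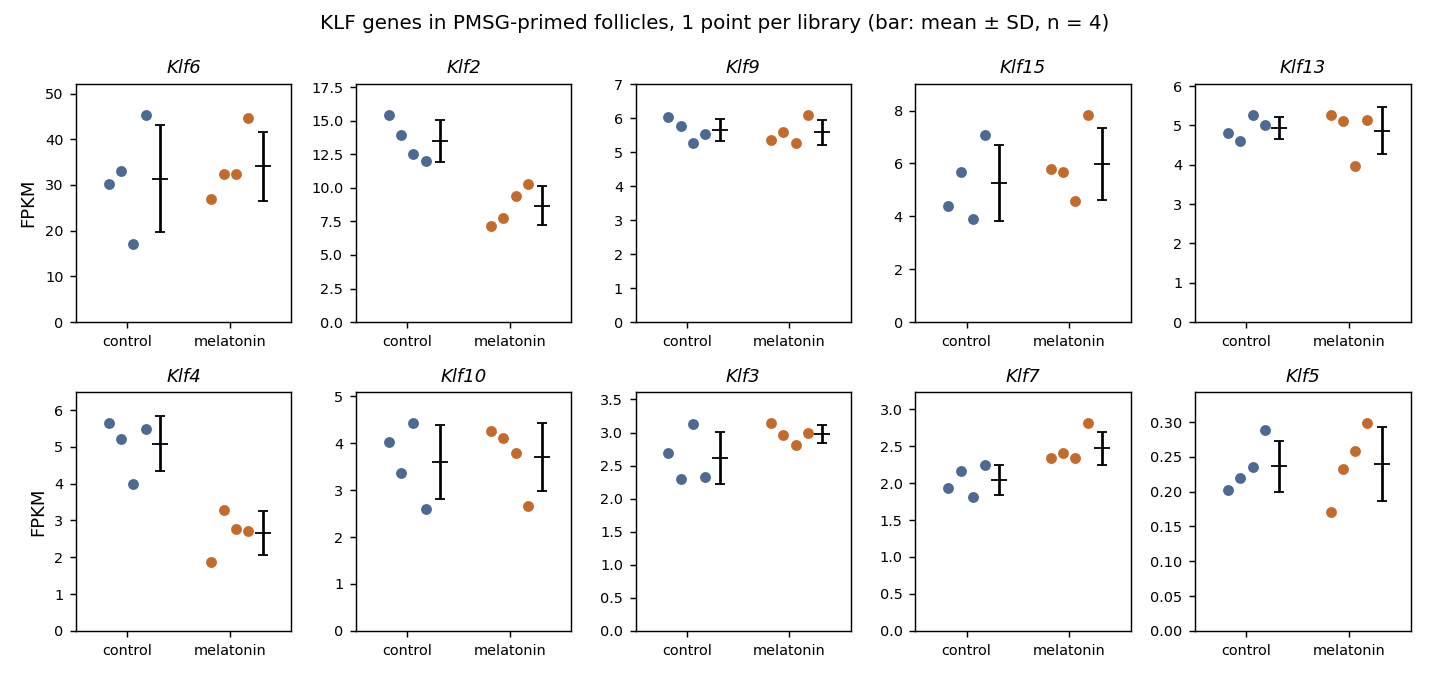
FPKM of each KLF gene (y axis, starting at 0, 1 panel per gene) in the control and melatonin libraries, 1 point per library with the mean ± SD (n = 4) beside them. Klf2 and Klf4 have all melatonin points below the control points, Klf7 has all of them above, and the groups overlap for the other genes.

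Klf4, a factor best known from pluripotency and epithelial differentiation (chromosome 4, 55527143 to 55532466 in mm10), had the smallest p of the members. Its level was 5.64, 5.22, 3.99 and 5.48 FPKM in control replicates 1 to 4. It was 1.87, 3.29, 2.76 and 2.73 FPKM in melatonin replicates 1 to 4. All melatonin values were below all control values, with control replicate 3 and melatonin replicate 2 nearest to each other and melatonin replicate 1 the lowest. The means were 5.08 ± 0.75 FPKM and 2.66 ± 0.59 FPKM (SD, n = 4 each), and the recovered fragments numbered 1258 in control and 684 in melatonin. The log2 fold change was -0.74 ± 0.14 SE (95% interval -1.05 to -0.42, limma adjusted p = 0.120). Since adding 1 to FPKM shrinks the change of a low gene, limma-voom on the fragments gave -0.93 (adjusted p = 0.0656).

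Klf2, a factor of vessel walls and lymphocytes that responds to flow (chromosome 8, 72319033 to 72321656), showed the same direction at a higher level. Control replicates 1 to 4 had 15.4, 13.9, 12.5 and 12.02 FPKM. Melatonin replicates 1 to 4 had 7.17, 7.75, 9.43 and 10.3 FPKM. The groups did not overlap, with melatonin replicate 4 and control replicate 4 nearest to each other. The means were 13.5 ± 1.54 and 8.66 ± 1.45 FPKM (SD, n = 4 each), from 2019 and 1349 fragments. The log2 fold change was -0.59 ± 0.12 SE (95% interval -0.86 to -0.32, limma adjusted p = 0.120). A log2 fold change of -0.5 or lower was reached by 231 tested genes, or 1.57%, and Klf4 and Klf2 were 63rd and 101st by p among all tested genes. The Klf2 transcript has 61.6% GC and that of Klf4 54.6%. After removal of GC and length trends from each library the log2 fold changes were -0.50 and -0.67, and the groups still did not overlap.

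The other members of the acetyltransferase-recruiting branch, Klf7, Klf6 and Klf5, had melatonin means above their control means. For Klf6 and Klf5 the groups overlapped. Klf7, known from neuronal development (chromosome 1, 64029447 to 64122282), had 1.94, 2.17, 1.81 and 2.24 FPKM in control replicates 1 to 4. It had 2.34, 2.41, 2.34 and 2.81 FPKM in melatonin replicates 1 to 4. The melatonin values lay above all control values, but the lowest of them exceeded the highest control value by less than the SD of either group (0.20 and 0.23 FPKM, n = 4 each). This gave a log2 fold change of 0.19 ± 0.08 SE (limma adjusted p = 0.253). The groups overlapped after quantile normalization. Exons of Klf7 overlap those of 2 genes on the other strand, Gm26649 and Gm13748. Of the 8131 exon bases of Klf7, 3196 are shared with Gm26649, at 0 in all libraries, and 4 with Gm13748, at 0.03 and 0.16 FPKM. The use of strand in counting is not given in the sources used here, and the effect of this overlap on the Klf7 level was not tested.

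Klf6, an immediate-early factor of many tissues (chromosome 13, 5861482 to 5870394), was the most abundant member. Its level was 30.2, 33.1, 17.0 and 45.4 FPKM in control replicates 1 to 4. It was 26.9, 32.4, 32.4 and 44.7 FPKM in melatonin replicates 1 to 4. The 2 highest libraries were the replicates numbered 4 of both groups, and control replicate 3 was the lowest. Within control the highest value was 2.67 times the lowest, and the coefficient of variation of 37.1% was above that of 91.0% of tested genes, where counting error at this depth gives 1.89%. The log2 fold change of 0.17 ± 0.27 SE (95% interval -0.45 to 0.79, limma adjusted p = 0.757) turned to -0.09 without control replicate 3, and it was 0.37 without control replicate 4 and 0.04 without melatonin replicate 4. The range within control, 1.37 on the log2(FPKM + 1) scale, was also 1.37 after removal of GC and length trends.

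Klf5, which acts in epithelial growth (chromosome 14, 99298691 to 99315036), was at 0.17 to 0.30 FPKM in all 8 libraries. That is below the mean of 1 FPKM needed for the test. The control mean was 0.236 ± 0.037 FPKM and the melatonin mean 0.240 ± 0.053 FPKM (SD, n = 4 each), from 101 and 105 fragments. With no filter on low values its log2 fold change was 0.004 ± 0.047 SE (limma adjusted p = 0.986).

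None of the corepressor-binding members had groups without overlap or an unadjusted p under 0.05. Klf3, a CtBP-binding repressor (chromosome 5, 64803388 to 64832901), had 2.70, 2.30, 3.13 and 2.32 FPKM in control and 3.14, 2.97, 2.81 and 2.99 in melatonin replicates 1 to 4. Its log2 fold change was 0.14 ± 0.09 SE (95% interval -0.05 to 0.34, limma adjusted p = 0.399), and 404 of its 11243 exon bases are shared with the opposite-strand gene Gm20033, at 0.42 and 0.40 FPKM. Without control replicate 3, the highest control value, the groups of Klf3 did not overlap, and after removal of GC and length trends its log2 fold change was 0.09.

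Klf9, a Sin3-binding factor induced by thyroid and glucocorticoid hormones (chromosome 19, 23141226 to 23168134), was among the steadiest members. It ran from 5.29 to 6.03 FPKM in control (median 5.66) and from 5.29 to 6.10 in melatonin (median 5.48). The log2 fold change was -0.02 ± 0.06 SE (95% interval -0.16 to 0.13, limma adjusted p = 0.910), with coefficients of variation of 5.66% and 6.59%. Klf13, a related factor of lymphocytes and heart (chromosome 7, 63886351 to 63938915), ran from 4.61 to 5.27 FPKM in control and from 3.96 to 5.26 in melatonin, and melatonin replicate 3 gave the lowest value. Its log2 fold change was -0.02 ± 0.09 SE (95% interval -0.21 to 0.18, limma adjusted p = 0.923). The signs of both changed between settings, so neither direction held.

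Klf10, induced early by TGF-beta (chromosome 15, 38291463 to 38300706), had 4.02, 3.37, 4.42 and 2.61 FPKM in control replicates 1 to 4. It had 4.25, 4.11, 3.79 and 2.65 FPKM in melatonin replicates 1 to 4. The replicates numbered 4 were the lowest of both groups, where Klf6 was highest. Melatonin minus control gave a log2 fold change of 0.03 ± 0.16 SE (95% interval -0.32 to 0.39, limma adjusted p = 0.927).

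Klf15, the metabolic member (chromosome 6, 90462576 to 90475238), had 4.39, 5.67, 3.90 and 7.08 FPKM in control replicates 1 to 4. It had 5.79, 5.66, 4.58 and 7.84 FPKM in melatonin replicates 1 to 4. As for Klf6, the replicates numbered 4 were the highest of each group and control replicate 3 was the lowest of control. Its log2 fold change was 0.16 ± 0.18 SE (95% interval -0.26 to 0.58, limma adjusted p = 0.653). It was 0.10 without control replicate 1, 0.05 without control replicate 3 and 0.04 without melatonin replicate 4, and 0.29 without control replicate 4 and 0.26 without melatonin replicate 3. For Klf10 and Klf15 the intervals allow changes in either direction of over 0.2, so the p-values do not show that the levels were alike.

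**Figure D2:**
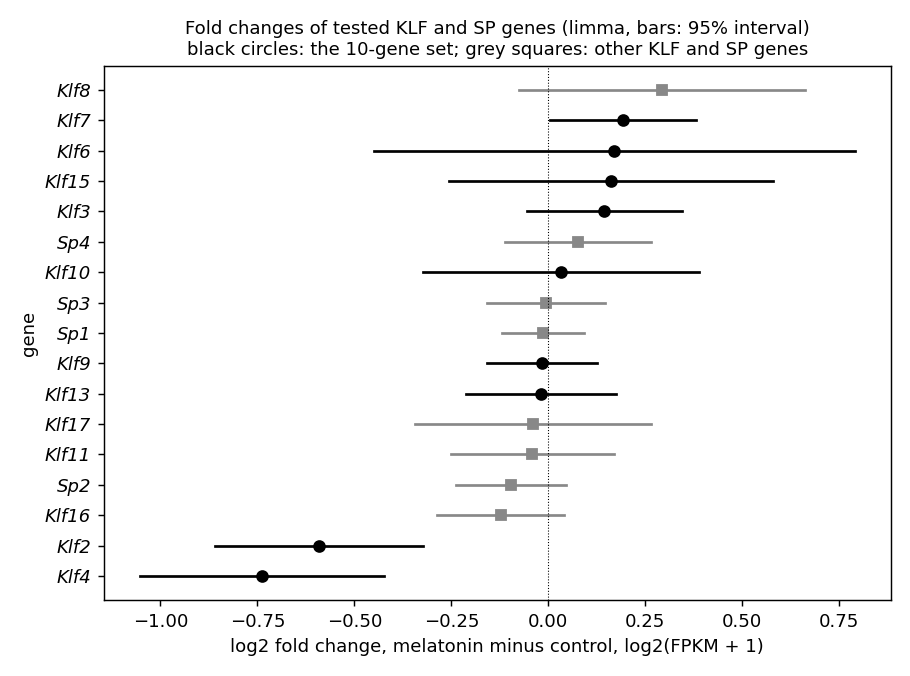
Log2 fold change of melatonin minus control (x axis, log2(FPKM + 1) scale) for each tested KLF and SP gene (y axis), with the 95% interval from limma as a bar. Black circles are the members and grey squares the other KLF and SP genes. Klf4 at -0.74 and Klf2 at -0.59 lie apart from the others, which range from -0.12 (Klf16) to 0.29 (Klf8).

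The order of levels is given within each group, since Klf4 held a different place in the 2 groups. Klf6 came first and Klf2 second in both, each above the next member in 4 of 4 libraries. In control the next by mean FPKM were Klf9 (5.66), Klf15 (5.26), Klf4 (5.08) and Klf13 (4.93), and none of these neighbours kept its order in all 4 libraries. Klf10 (3.60), Klf3 (2.61), Klf7 (2.04) and Klf5 (0.24) followed, each above the next in 4 of 4. With melatonin Klf15 (5.97) exceeded Klf9 (5.59) in 3 of 4 libraries, and Klf9 exceeded Klf13 (4.87) and Klf13 exceeded Klf10 (3.70) in 4 of 4. Klf10 exceeded Klf3 (2.98) and Klf3 exceeded Klf4 (2.66) in 3 of 4 libraries each, and Klf4 exceeded Klf7 (2.47) in 2 of 4. Klf5 was again the lowest in 4 of 4.

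Summed over the 10 members, the 4 control libraries held 57.6 to 87.9 FPKM and the 4 melatonin libraries 62.3 to 85.5. The ratio of the melatonin to the control mean was 0.959, and the groups overlapped. Klf6 made up 41.1 ± 9.14% of the control sum and 47.5 ± 3.71% of the melatonin sum (SD, n = 4 each). The share of Klf2 was 18.5 ± 3.57% in control and 12.2 ± 1.24% in melatonin. Its ranges, 13.7 to 21.8% and 11.2 to 13.9%, overlapped. Klf4 took 6.23 to 7.48% of the sum in the control group and 3.01 to 4.74% with melatonin, without overlap. Klf7 took 2.55 to 3.14% and 3.28 to 3.75%, also without overlap. Without Klf6 the sum ranged over 40.6 to 45.2 FPKM in the control group and 35.2 to 40.9 with melatonin, and control replicate 3 and melatonin replicate 4 were the libraries that overlapped.

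**Figure D3:**
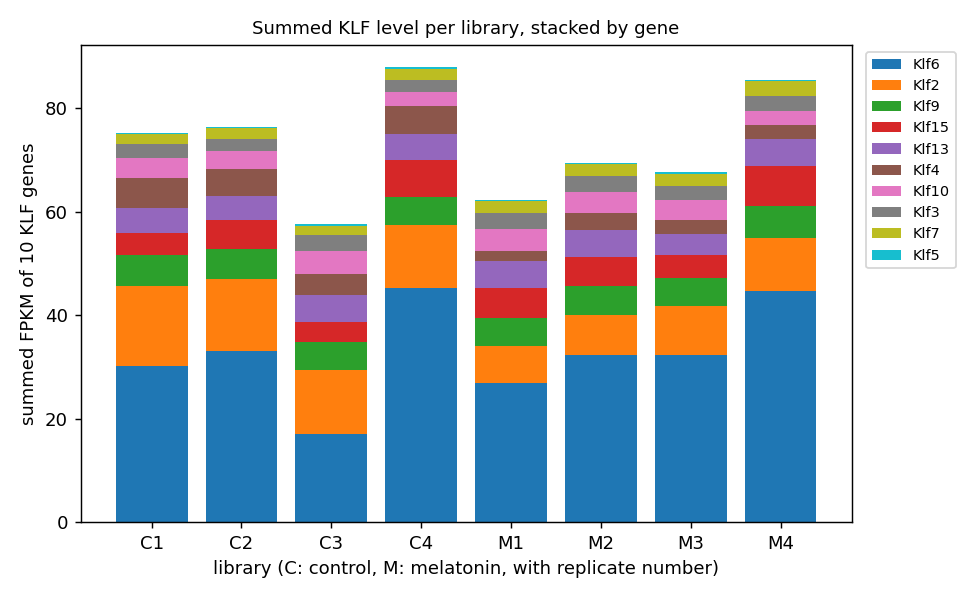
FPKM of the 10 KLF genes stacked for each library (y axis, starting at 0; x axis, control C1 to C4 and melatonin M1 to M4). The lowest segment is Klf6, which varies from 17.0 to 45.4 FPKM, and the Klf2 segment is shorter in M1 to M4.

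The remaining KLF genes and the related SP genes, which bind the same kind of GC-rich site, gave a comparison within the family. Of 7 other KLF genes 4 were tested and none had an unadjusted p under 0.05 or groups without overlap. Klf16, a Sin3-binding member, had 12.9 ± 0.73 FPKM in control and 11.8 ± 1.12 in melatonin. Klf11 had 7.27 ± 0.68 and 7.05 ± 0.88, and Klf17, known from germ cells, had 5.31 ± 1.10 and 5.08 ± 0.58 (SD, n = 4 each). Klf8, a CtBP-binding member like Klf3, had 6.66 ± 1.77 and 8.19 ± 0.53 FPKM, with control replicate 3 lowest at 4.31. By group mean, Klf16 was below Klf2 (13.5 FPKM) in control and above it (8.66) with melatonin, and Klf8 and Klf11 lay between Klf2 and Klf9 in both. After removal of GC and length trends the log2 fold change of Klf16 went from -0.12 to -0.04. Klf1 (0.77 and 0.80 FPKM) and Klf12 (0.48 and 0.71 FPKM) were below the test's minimum, and Klf14 had 1 fragment in 8 libraries. Sp1 (16.6 ± 0.65 and 16.4 ± 0.54 FPKM) and Sp3 (17.2 ± 1.63 and 17.0 ± 0.29) were at a level between Klf6 and Klf2. Sp2 had 5.55 ± 0.35 and 5.13 ± 0.30 FPKM and Sp4 3.59 ± 0.42 and 3.83 ± 0.28. Sp5 was at 0.28 and 0.27 FPKM, Sp6, Sp7 and Sp9 were below 0.03, and Sp8 was listed at 0.

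Genes with the most similar profiles differed from member to member. Likeness was the mean absolute difference over the 8 libraries between log2(FPKM + 1) profiles centred on each gene's mean, and the 2 nearest of all tested genes are given. For Klf2 these were Jund (0.066) and Zfp36 (0.084), where the median over tested genes was 0.312. Jund, a subunit of the AP-1 transcription factor, had 80.6, 72.1, 70.6 and 65.1 FPKM in control and 38.0, 42.2, 59.4 and 53.4 in melatonin replicates 1 to 4. Zfp36 codes for a protein that destabilises messenger RNA. For Klf4 the nearest were Socs3 (0.096), a feedback inhibitor of cytokine signalling, and the mitochondrial leucine tRNA gene mt-Tl1 (0.117), against a median of 0.380. Socs3 had 13.7, 13.5, 11.1 and 13.7 FPKM in control and 6.25, 7.52, 9.10 and 7.93 in melatonin replicates 1 to 4. In Jund, Zfp36, Socs3 and mt-Tl1 the melatonin values lay below all control values, as they did in Klf2 and Klf4. Since these genes were picked for a like profile over the same libraries, this likeness was built into the choice.

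For Klf6 the nearest profiles were Irs1, the insulin receptor substrate (0.081), and 5033430I15Rik (0.109), against a median of 0.319. Irs1 had 10.8, 13.1, 7.12 and 17.6 FPKM in control and 9.69, 11.7, 10.9 and 16.0 in melatonin replicates 1 to 4, so it too was lowest in control replicate 3 and high in the replicates numbered 4. For Klf15 they were Zfp608 (0.070) and Greb1l (0.075), with Greb1l at 27.7 FPKM in control replicate 3 and 44.6 and 52.2 in the replicates numbered 4. For Klf10 they were Cxxc5 (0.047) and Kctd15 (0.055), and for Klf7 Bicd2 (0.032) and Mier1 (0.033). For Klf3, Klf5, Klf9 and Klf13, the smallest distances were 0.020 to 0.036, to Rexo2, Lin54, Tm9sf3 and Tmc6.

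**Figure D4:**
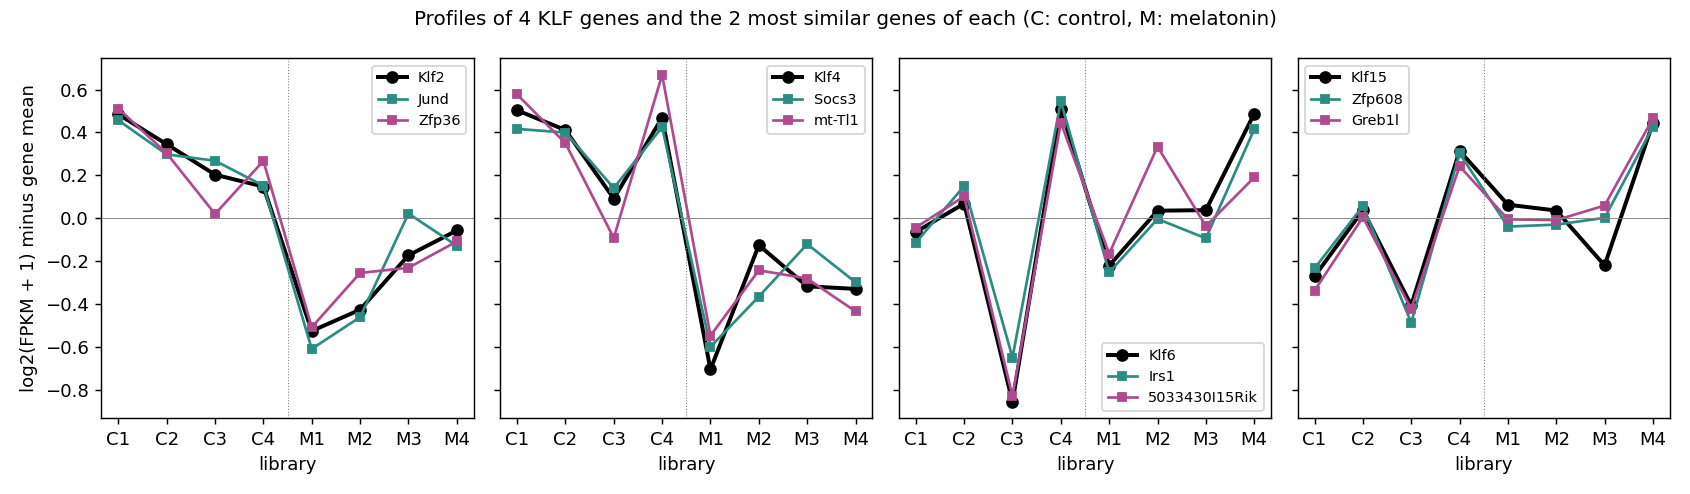
Log2(FPKM + 1) minus the gene's mean (y axis) in each library (x axis, control C1 to C4 and melatonin M1 to M4) for Klf2, Klf4, Klf6 and Klf15 in black and the 2 most similar genes of each in colour. Lines join the points of a gene and imply no order of replicates. Klf2 and Klf4, like Jund, Zfp36, Socs3 and mt-Tl1, lie lower in M1 to M4 than in C1 to C4. Klf6 and Klf15 are low in C3 and high in C4 and M4.

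Immediate-early genes, the class to which Klf2, Klf4, Klf6 and Klf10 are often assigned, were read from a list of 20 genes without KLFs. That list was written with earlier results of these data known, so its counts are description only. It includes Jund, Zfp36 and Socs3, named above as nearest profiles, and the heat-shock genes Hspa1a and Hspa1b. All 20 were tested and 0 passed the threshold. Before adjustment 9 on the lower side and 1 on the higher side had p under 0.05 by limma, where 9.74% and 9.4% of all tested genes did. Groups did not overlap for 7 on the lower side and 1 on the higher side, where all tested genes gave 5.94% and 5.79%. The median log2 fold change of the list was -0.57, beside -0.01 over all tested genes. Jun, the most abundant, had 318, 296, 214 and 290 FPKM in control and 130, 148, 207 and 222 in melatonin replicates 1 to 4. The summed level of the list was 1368, 1272, 995 and 1298 FPKM in control and 639, 720, 1012 and 1067 in melatonin replicates 1 to 4. Melatonin replicates 1 and 2, the lowest libraries of this sum, were also the 2 lowest for Klf2, whereas for Klf4 melatonin replicate 1 was the lowest and replicate 2 the highest of the melatonin group. The part of this class in the values of Klf2 and Klf4 was not tested.

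Of the genes that act on or with KLF proteins 0 passed the threshold. Of 9 cofactors, 5 were negative and 4 positive, and Hdac1, a histone deacetylase of the Sin3 complex, had 16.4 ± 2.14 FPKM in control and 12.9 ± 1.75 in melatonin (limma adjusted p = 0.184). For Hdac1 the groups overlapped. Groups did not overlap for 3 of the 9, with 2 on the lower side (Ctbp1 and Ctbp2) and 1 on the higher side (Ep300). Of all tested genes 5.94% were without overlap on the lower and 5.79% on the higher side. Ctbp1, a partner of Klf3, had 36.5 ± 0.77 and 34.3 ± 1.27 FPKM, and its relative Ctbp2 had 9.20 ± 0.37 and 8.40 ± 0.43. Ep300, an acetyltransferase, lay in the other direction with 8.21 ± 0.27 and 9.01 ± 0.45 FPKM (limma adjusted p = 0.248). Ctbp2 and Ep300 were named after their values were seen. Of 5 ubiquitin ligases of KLF proteins 4 were positive, with Smurf1 at 9.76 ± 0.92 and 10.7 ± 0.16 FPKM and Smurf2 at 11.96 ± 0.88 and 12.1 ± 0.32 (SD, n = 4 each). None of these 5 had an unadjusted p under 0.05.

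Possible inputs to KLF genes were read as 3 lists, in which 0 genes passed the threshold. Before adjustment Map3k2 (of 8 tested), Tgfb1 and Tgfb3 (of 9) and Esr2 (of 4) had p under 0.05 by limma. All were on the higher side, where 9.4% of all tested genes had such a p. No gene of these lists had groups without overlap, against 11.7% of all tested genes. In the ERK5 and MEF2 pathway, which induces Klf2 and Klf4 in vessels, 6 of 8 genes were positive (median log2 fold change 0.06). Its kinase gene Map3k2 averaged 5.49 ± 0.55 FPKM in control libraries and 6.27 ± 0.23 in those with melatonin, and Mef2d had 29.5 ± 3.17 and 30.9 ± 2.05. Removal of GC and length trends took the log2 fold change of Map3k2 from 0.17 to 0.02. In the TGF-beta list, which includes the inducers of Klf10, 5 of 9 were positive (median 0.10). Tgfb3 averaged 33.2 ± 5.37 FPKM in control libraries and 42.7 ± 6.93 in those with melatonin, and Tgfb1 had 4.39 ± 0.51 and 5.12 ± 0.22. Nuclear hormone receptors, several of which are known to act on Klf9 and Klf15, were positive in 4 of 4 tested (median 0.17), with Esr2, the granulosa estrogen receptor, at 181 ± 36.6 and 229 ± 16.6 FPKM (limma adjusted p = 0.221). Esr2 had its lowest value, 135 FPKM, in control replicate 3, the library lowest for Klf6.

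The glucocorticoid receptor targets Per1 (9.98 ± 1.11 against 8.41 ± 1.89 FPKM) and Fkbp5 (28.4 ± 3.88 against 26.4 ± 4.96) belonged to a list with 3 of 4 tested genes negative and none at an unadjusted p under 0.05. FOXO factors, of which Foxo1 induces Klf2 in lymphocytes, held 2 of 3 genes negative (median -0.03). Foxo1 averaged 126 ± 16.1 FPKM in control libraries and 122 ± 5.97 in those with melatonin, and Foxo3 had 13.01 ± 0.28 and 12.5 ± 0.65 (SD, n = 4 each).

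Genes that KLF proteins are known to regulate in other tissues were read as 3 lists, in which 0 passed the threshold and 0 had an unadjusted p under 0.05. Cell cycle targets were negative in 4 of 5 tested (median log2 fold change -0.17), with Ccnb1, a mitotic cyclin, at 28.1 ± 3.57 and 25.1 ± 1.48 FPKM. Cdkn1b, a cell cycle inhibitor, had 27.6 ± 4.63 and 30.9 ± 1.62. Of the vessel targets of Klf2 and Klf4, 2 of 5 reached the test's minimum. Thbd, thrombomodulin, had 2.86 ± 0.98 FPKM in control and 2.08 ± 0.35 in melatonin (limma adjusted p = 0.363), with control replicate 2 at 4.31 FPKM and the other control libraries at 2.12 to 2.50. Without that library its log2 fold change went from -0.30 to -0.14. Edn1, endothelin, had 4.72 ± 0.56 and 5.49 ± 3.86. Its log2 fold change of 0.03 went to -0.325 without melatonin replicate 3 and to 0.197 without melatonin replicate 2. The endothelial marker list was negative in 6 of 6 tested genes, and its part in the values of Klf2 was not tested. Negative counts were also 8 of 8 for oocyte, 6 of 6 for leukocyte, 6 of 6 for stroma and 5 of 5 for surface epithelium markers. They were 7 of 8 for granulosa, 5 of 6 for theca and 3 of 4 for smooth muscle markers. Of all tested genes 52.5% were negative. Of the metabolic targets of Klf15, 3 of 5 were tested, among them Prodh, which breaks down proline (4.04 ± 0.22 and 3.84 ± 0.34 FPKM), and Bcat2, which breaks down branched-chain amino acids (27.3 ± 1.89 and 28.2 ± 1.17).

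**Figure D5:**
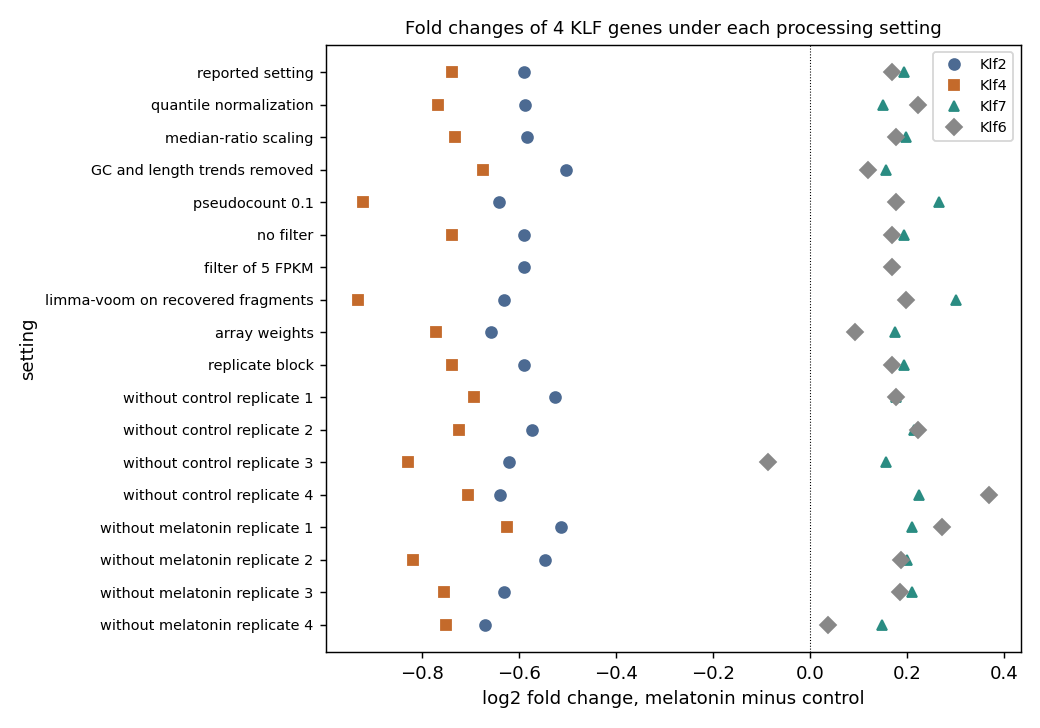
Log2 fold change of melatonin minus control (x axis) for Klf2, Klf4, Klf7 and Klf6 under each processing setting (y axis). Klf2 stays between -0.67 and -0.50 and Klf4 between -0.93 and -0.63, Klf7 stays between 0.15 and 0.30, and Klf6 ranges from -0.09 to 0.37.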

How the data were processed

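Libraries were made from total RNA with a NEBNext Ultra RNA kit, per the labels' protocols, and the submitters' processing notes name HISAT2 2.0.5 and mm10. For the counting tool, the annotation and strand, nothing is stated (not given in the sources used here). Per the file headers, the authors deposited FPKM per gene. The series table had 0 values differing from the sample files. Being scaled to a library total, FPKM of 1 gene depends on the others. Exon lengths and positions came from GENCODE M21 (mm10), which matched 54495 of 55157 identifiers, and 98.8% of low values (up to 30 fragments) were whole numbers of fragments within 0.05, which gave the depths. Promoter windows came from RefSeq. Protein sequences were not used here, so the planned comparison of zinc fingers was not made.

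The test was limma 3.58.1 (R 4.3.3) on log2(FPKM + 1) of genes averaging 1 FPKM or more, with variances moderated along a mean-variance trend, group as the single term, 4 libraries in each group and Benjamini-Hochberg adjustment over 14738 genes at a threshold of 0.05. The fit was tested on simulated data. GC content was that of the longest transcript, and GC and length trends were natural splines with 5 degrees of freedom, fitted on 14392 genes. limma-voom used 14232 genes with whole fragment counts. Named genes were all KLF and SP genes, of each other list the gene with the smallest p and the one with the highest mean, and for each member its nearest profiles. The members, lists and alternatives were chosen with earlier results of these data known. A sum of levels without Klf6 was added after seeing the data. Tables were made in Python 3.11.15 with pandas 2.3.3, plots with matplotlib 3.10.9.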

Additional observations from a re-analysis of the deposited data

Results flagged for a closer look

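Among the 10 members in 2 groups, 2 values stood apart from the other 3 of their group, where chance flags about 1 in 20 groups. Klf7 was at 2.81 FPKM in melatonin replicate 4, with the other 3 melatonin libraries at 2.34 to 2.41. Klf13 was at 3.96 FPKM in melatonin replicate 3, with the other 3 at 5.10 to 5.26.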

How the results depend on the processing

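Over 17 alternatives to the reported setting, 0 members passed the threshold. The count over all genes was 0 except without a filter and without control replicate 1, where it was 1 (0 to 1 over fits without 1 library). Klf2 and Klf4 were negative and without overlap in every alternative that tested them, with limma adjusted p from 0.0711 to 0.317 and from 0.0656 to 0.317. Members without overlap numbered 3 (11.7% of all tested genes), but 1 of 4 tested with the filter of 5 FPKM, which removed Klf4 and Klf7 (13.8%), 2 after quantile normalization (10.2%) and 4 without control replicate 3 (14.5%). The summed KLF ratio was 0.892 to 1.02 without 1 library and 0.866 without Klf6, which is not a fit without a library.

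Small fold changes changed sign, always without a call, and the cause was not tested. Leaving out 1 library gave log2 fold changes from -0.0865 to 0.369 for Klf6, -0.0526 to 0.0109 for Klf9, -0.0789 to 0.15 for Klf10, -0.0518 to 0.0597 for Klf13, -0.106 to 0.0202 for Klf11, -0.161 to 0.0484 for Klf17, -0.0343 to 0.00811 for Sp1, -0.0665 to 0.0392 for Sp3, -0.0119 to 0.0583 for Smurf2, -0.00472 to 0.114 for Mef2d, -0.114 to 0.0366 for Foxo1 and -0.325 to 0.197 for Edn1. limma-voom gave 0.00532 for Klf9, 0.000719 for Klf13, 0.00612 for Sp1, 0.0132 for Sp3 and -0.0199 for Edn1. Quantile normalization gave -0.0065 for Klf10, 0.0144 for Sp1, 0.0237 for Sp3 and 0.067 for Foxo1. Removal of GC and length trends gave 0.00701 for Klf13, 0.0134 for Klf17 and -0.0161 for Sp4, and array weights gave 0.0168 for Klf13 and -0.0544 for Edn1.

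Over all tested genes same-numbered libraries did not deviate together. Correlations of deviations from the group means ran from -0.10 to 0.15 over the 4 numbers, and not every library correlated best with its own number. With the replicate number as a block 0 genes passed, and 2776 had an unadjusted p under 0.05 in place of 2821. Klf2 and Klf4 then had limma adjusted p of 0.165 and 0.149. Single members differed, and the block took the SE from 0.27 to 0.18 for Klf6 and from 0.16 to 0.09 for Klf10. For Klf15 the SE went from 0.18 to 0.07 (limma adjusted p = 0.308). It went from 0.083 to 0.080 for Klf7 and rose for Klf2, Klf3, Klf4, Klf9 and Klf13. With 4 libraries per group and 20 to 33 fragments per library, Klf5 allows no statement on small changes.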
